A study of Saccharomyces cerevisiae Sigma1278b with 62 samples.

Results

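The genes that load the small ribosomal subunit onto capped, polyadenylated mRNAs were followed here as 10 open reading frames (ORFs) out of 5563 in the count tables of the series. The rule names the 10 identifiers and uses no measured value. The cap side of the complex was CDC33 (YOL139C), which encodes eIF4E, with the eIF4G scaffolds TIF4631 (YGR162W) and TIF4632 (YGL049C). The tail side was PAB1 (YER165W), the poly(A)-binding protein. The helicase arm was TIF1 (YKR059W) and TIF2 (YJL138C), which encode the same eIF4A protein, together with TIF3 (YPR163C), the eIF4B cofactor, and DED1 (YOR204W), a DEAD-box RNA helicase. The repressors were CAF20 (YOR276W) and EAP1 (YKL204W), proteins that bind eIF4E. Each of the 10 had enough reads for a test in all 15 comparisons below, which took at least 128 reads summed over the footprint libraries compared and as many over those of total RNA.

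In budding yeast, eIF4E holds the 5′ cap and eIF4G bridges it to the helicase eIF4A and to Pab1 on the poly(A) tail, so that the ends of the mRNA are brought together in a closed loop. Caf20 and Eap1 use the surface of eIF4E that eIF4G needs, and so compete with the scaffold. eIF4B and Ded1 help to unwind 5′ leaders ahead of the scanning subunit. Asc1, the yeast RACK1, sits on the head of the small subunit.

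The study measured ribosome footprints (FP, the mRNA pieces covered by ribosomes) and total RNA by sequencing in Sigma1278b yeast, and translational efficiency (TE) is the ratio of the first to the second. Cultures grew at 30 °C in YPAD with 2% glucose to mid-log phase unless glycerol is named, and received cycloheximide. The main experiment held wild type (WT), asc1-M1X, asc1∆, asc1-D109Y, rpl23b∆ and rpp1a∆. In asc1-M1X an early codon of ASC1 is a stop codon and the intronic snoRNA SNR24 is kept. In asc1∆, rpl23b∆ and rpp1a∆ the gene was replaced by kanMX6, and RPL23B and RPP1A encode proteins of the large (60S) subunit. asc1-D109Y and asc1-DE carry substitutions that lower the Asc1 recovered with ribosomes after centrifugation, although per the study both proteins still sediment with polysomes once crosslinked, so they are not models of full release. asc1-DE was set against its own WT in a separate experiment. rps0b∆ and rps16b∆, which lack 1 of the paralogous genes of a small-subunit (40S) protein, and their WT came from a deletion collection of the same background. asc1-M1X and WT were also profiled in YPAG with 3% glycerol. The labels call these cultures mid-log, while the study describes cells taken some hours after a shift from glucose, before fast growth resumed. The glucose total RNA of both strains was prepared a further time with Ribo-Zero rRNA depletion. Each strain had 2 libraries of each type in an experiment, so n = 2 for every level below. The mutants of the main experiment came from 2 strain numbers each and every WT from 1, so the p-values measure the spread between these cultures.

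Total RNA was purified in 4 ways, and this bears on several of the values. The main and glycerol experiments used oligo dT cellulose with Superscript III, the collection strains oligo dT cellulose with AMV reverse transcriptase, the asc1-DE experiment oligo dT beads with poly(A) tailing in place of adapter ligation, and the last set Ribo-Zero. The 26 FP libraries held 5091809 to 15322986 reads on ORFs and the 30 total RNA libraries 1713047 to 8407876. As a check of the labels, ASC1 had 249 and 179 FP reads in the asc1-M1X libraries against 30475 and 33792 in WT, or 0.558% of the WT level, while its total RNA stayed at 56.9%. Each deleted gene was at most 1.91% of WT in both library types, and the D109Y and DE substitutions cannot be read from counts. In asc1-D109Y, ASC1 was at 151% of WT in FP and 163% in total RNA, and in asc1-DE at 144% in both. Per the study both mutant proteins were made at near WT levels. Levels are given as scaled CPM, counts relative to the library total with TMM scaling over all libraries of a type. They are relative, so a change of total mRNA per cell cannot be seen in them, and ORF lengths were not used, so levels are not compared between genes.

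In WT of the main experiment all 10 genes lay above the median gene in TE in both cultures. CAF20 stood highest, at 4.95 times the median and the 99.9th and 100th percentile of 5068 genes. DED1 followed at 3.18 times the median, and the lowest were TIF4631 at 1.46 times and EAP1 at 1.48 times. With Ribo-Zero total RNA all 10 again lay above the median, from 1.10 times for TIF4631 to 2.74 times for CAF20, but DED1 was then at 1.23 times.

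The total RNA level of several of these genes differed far more between preparations of WT in the same glucose medium than between any mutant and its WT. DED1 had 899 and 831 scaled CPM in the main experiment, 2167 and 2208 with Ribo-Zero, 379 and 573 with poly(A) tailing, and 55.3 and 51.7 in the collection WT. The 4 preparations did not overlap, and the highest mean was 40.9 times the lowest, a range at the 99.9th percentile of 5081 genes. PAB1 ran from a mean of 304 in the collection WT to 1821 with Ribo-Zero, a 5.99-fold range. TIF4631 had a 5.20-fold range in the same order. The cap-binding protein CDC33 went the opposite way, with means of 353 in the main experiment and 1398 in the collection WT, a 3.96-fold range, and so did TIF1 (3.11-fold) and CAF20 (3.06-fold). TIF2, whose protein is that of TIF1, ranged 1.25-fold.

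The footprints of WT varied less between the experiments. DED1 had FP levels of 1998 and 1896 in the main experiment, 1843 and 1821 with poly(A) tailing and 1633 and 1767 in the collection WT, a 1.15-fold range of means. PAB1 had a range of 1.03-fold. The wider ranges were those of EAP1 (1.63-fold), TIF1 (1.82-fold) and TIF2 (2.03-fold). Only reads that align to 1 place were counted for TIF1 and TIF2, which are near-identical, so the values of this pair are uncertain throughout. Over the 10 genes the median range was 1.22-fold in FP over 3 preparations, beside 1.23-fold for all genes, and 3.08-fold in total RNA over 4, beside 2.30-fold for all genes. Across genes, WT total RNA levels of the main experiment correlated with Ribo-Zero at r = 0.985 but with the collection WT at r = 0.666, whereas FP levels of the main experiment and the collection WT correlated at r = 0.986. Genes are not independent replicates, and these r values are a description. The collection WT also belongs to another strain set, so strain and preparation cannot be told apart there.

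**Figure D1:**
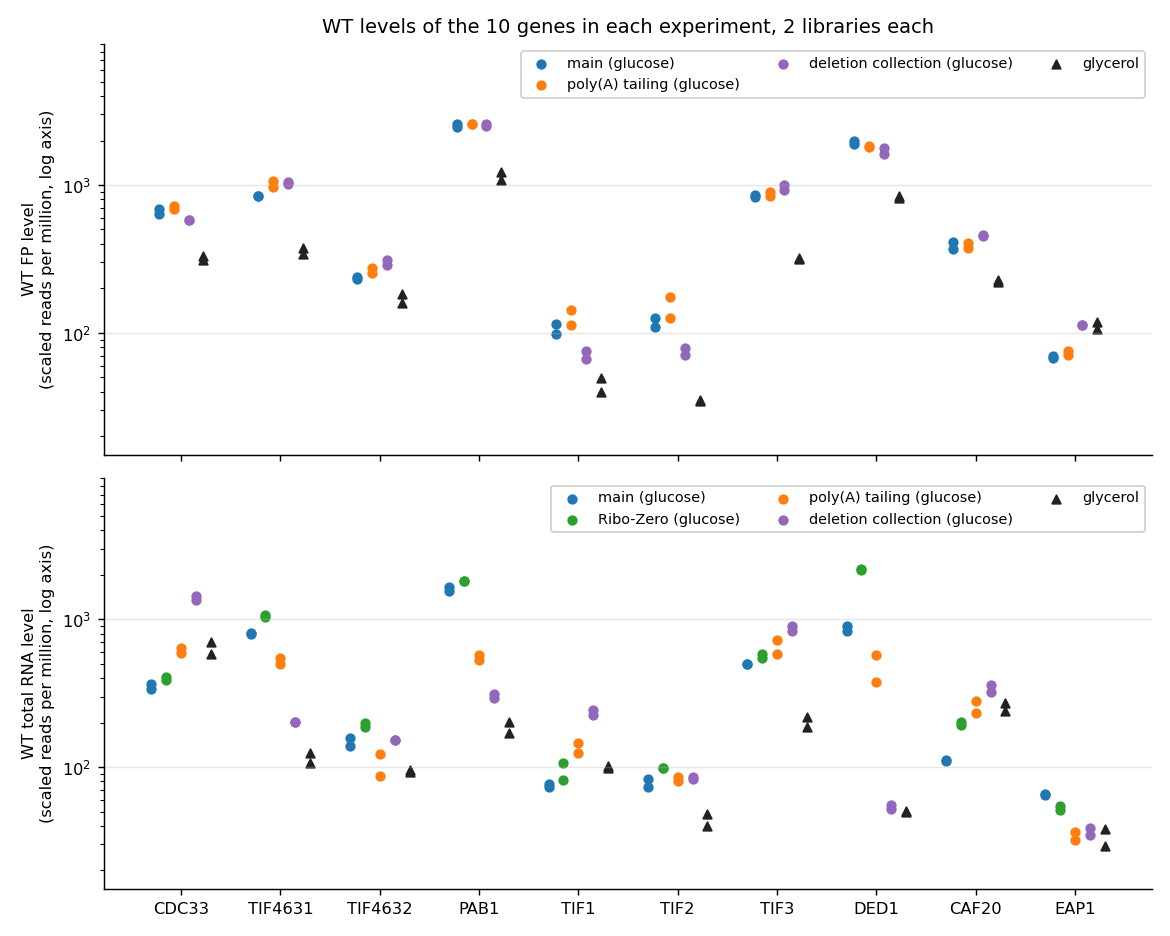
WT levels of the 10 genes in FP (top) and total RNA (bottom), in scaled CPM on a log axis, with a point per library, circles for glucose and triangles for glycerol. The FP of DED1 lies between 1633 and 1998 in every glucose library, while its total RNA runs from 51.7 to 2208.

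The TE of these genes in WT varied with the preparation of total RNA in the same way. DED1 stood at 1.23 times the median TE with Ribo-Zero, 3.18 times in the main experiment, 5.65 times with poly(A) tailing and 50.1 times in the collection WT. CDC33 was at 2.65 times the median in the main experiment and 0.656 times in the collection WT. Every contrast between strains below is therefore taken within 1 experiment. A call means an adjusted p below 0.05 over all genes tested (edgeR quasi-likelihood test, Benjamini-Hochberg), and changes are on the log2 scale with the standard error (SE). All contrasts of the main experiment that involve WT share the same WT libraries.

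Loss of Asc1 in glucose lowered the footprints of most of these genes and raised those of TIF4632 and DED1. In asc1-M1X, 6 of the 10 were called lower and 2 higher in FP. Of 4947 genes 52.3% were called, 25.4% lower and 26.8% higher. The median change of the 10 was −0.25 beside 0.00 for all genes. In asc1∆, 7 were lower and 2 higher, against 48.8% of all genes, 23.9% lower and 24.9% higher. The genes called in asc1-M1X were called in the same direction in asc1∆, which has the same WT libraries. Since about 1 gene in 2 was called, the number of calls says little about this set, and the directions and sizes are what follows.

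On the cap side, CDC33 had FP levels of 690.1 and 636 in WT, 485 and 473 in asc1-M1X and 464 and 459 in asc1∆. The mutant libraries all lay below both WT libraries. The change was −0.45 ± 0.052 (SE, adjusted p = 1.41e-05) in asc1-M1X and −0.51 ± 0.058 (adjusted p = 1.38e-05) in asc1∆. The eIF4G genes, which are paralogs, moved in opposite directions. TIF4631 fell by 0.23 in asc1-M1X and 0.27 in asc1∆ (adjusted p = 0.000923 and 0.000847). TIF4632 had FP levels of 229.7 and 239 in WT against 276 and 286 in asc1-M1X and 279 and 306 in asc1∆, all mutant libraries above WT, with changes of 0.28 ± 0.052 (adjusted p = 0.000768) and 0.33 ± 0.065 (adjusted p = 0.0011).

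PAB1 fell the most on this list. Its FP levels were 2474 and 2571 in WT, 1722 and 1758 in asc1-M1X and 1697 and 1668 in asc1∆, with no overlap. The change was −0.52 ± 0.043 (adjusted p = 7.03e-07) and −0.57 ± 0.050 (adjusted p = 1.46e-06). CAF20, the repressor that binds eIF4E, fell almost as far, from 371 and 409.8 in WT to 269 and 289 in asc1-M1X and 265 and 276 in asc1∆. Its change was −0.47 ± 0.059 (adjusted p = 2.8e-05) in asc1-M1X. The second repressor EAP1 was not called, at −0.04 ± 0.073 and −0.02 ± 0.080, and its FP level lay between 66.0 and 69.9 in all 6 libraries.

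Within the helicase arm, DED1 rose while the eIF4A genes fell. DED1 had FP levels of 1998 and 1896 in WT, 2302 and 2242 in asc1-M1X and 2379 and 2185 in asc1∆, and the groups did not overlap. The change was 0.24 ± 0.045 (adjusted p = 0.000817) and 0.24 ± 0.056 (adjusted p = 0.00329). TIF1 fell by 0.46 and 0.47 (adjusted p = 0.000843 and 0.00153). TIF2 fell by 0.27 and 0.29, and its call in asc1-M1X was lost without the first WT library (adjusted p = 0.109) or the second mutant library (0.0623), and that in asc1∆ likewise (0.13 and 0.0741). The eIF4B gene TIF3 was at −0.11 (adjusted p = 0.0529) in asc1-M1X and at −0.16 (0.0214) in asc1∆, the latter lost without any 1 of the 4 libraries (adjusted p 0.0682 to 0.149). With library size alone as the scaling, which moved the median FP change of all genes by 0.146 and 0.148, TIF4631 and TIF2 in both strains and TIF3 in asc1∆ were no longer called.

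**Figure D2:**
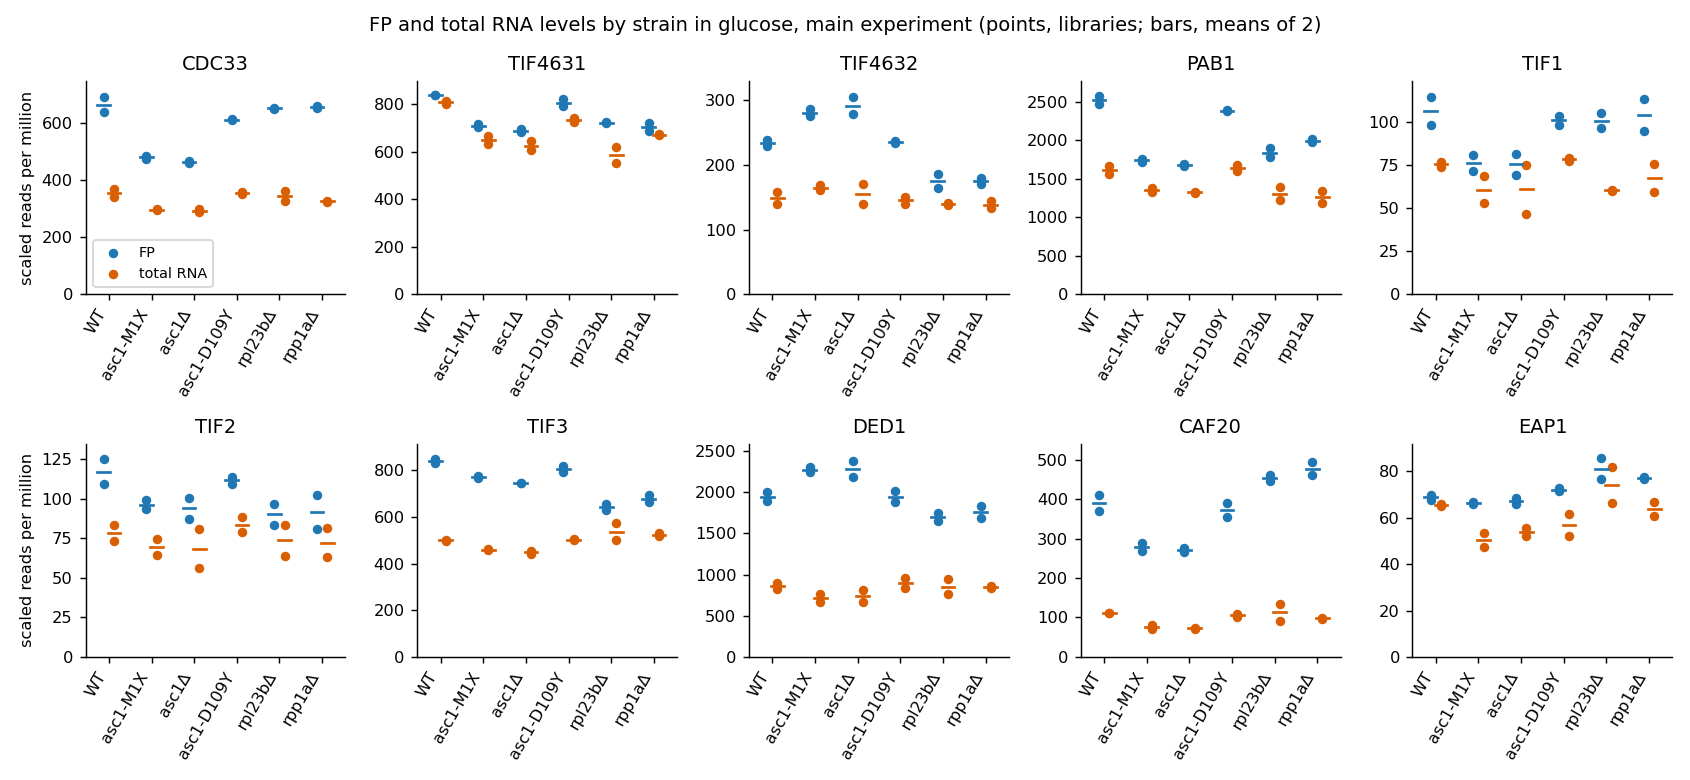
FP (blue) and total RNA (orange) levels of each gene in the strains of the main experiment, in scaled CPM on linear axes that start at 0, with a point per library and a bar at the mean of 2. CDC33, PAB1 and CAF20 footprints are low in asc1-M1X and asc1∆, TIF4632 footprints are high there and low in rpl23b∆ and rpp1a∆.

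Total RNA in asc1-M1X was called lower for 6 of the 10 and higher for none, and the median was −0.22. Of all genes 36.1% were called, 17.7% lower and 18.3% higher. CAF20 mRNA went from 112 and 111 in WT to 71.7 and 80.9, a change of −0.50 ± 0.079 (adjusted p = 0.00127) that matched its footprints in size. CDC33 (−0.21), PAB1 (−0.21), TIF4631 (−0.27), EAP1 (−0.33) and DED1 (−0.23) were the others. Of the 6, CAF20 alone was called without each library in turn. TIF4632 was at 0.19 ± 0.072 (adjusted p = 0.0679), both libraries above WT, and was called higher with library size alone (0.29, adjusted p = 0.0103). With that scaling CDC33 (−0.10), PAB1 (−0.10), EAP1 (−0.22) and DED1 (−0.12) were no longer called (adjusted p 0.0668 to 0.202). CDC33 and EAP1 were also lost with DESeq2, and PAB1, EAP1 and DED1 with all strains in 1 fit. Without the second asc1-M1X library the adjusted p was 0.131 for CDC33, 0.0815 for TIF4631, 0.0807 for PAB1, 0.129 for EAP1 and 0.291 for DED1. In asc1∆ the called genes were CAF20 (−0.57), TIF4631 (−0.32), PAB1 (−0.23) and CDC33 (−0.22), where 31.3% of all genes were called. The last 2 were lost when single libraries were left out and with library size alone (−0.12 and −0.11).

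DED1 was the member called higher in TE in both strains. In asc1-M1X its footprints rose while its poly(A)-selected RNA was at 759 and 673 against 899 and 831 in WT, and TE changed by 0.46 ± 0.090 (adjusted p = 0.0033). In asc1∆ the change was 0.42 ± 0.12 (adjusted p = 0.0477). PAB1 fell in TE by 0.31 ± 0.071 (adjusted p = 0.0075) and 0.34 ± 0.080 (adjusted p = 0.0198). CDC33 fell by 0.25 ± 0.082 in asc1-M1X (adjusted p = 0.0487) and was at −0.28 ± 0.090 in asc1∆ (adjusted p = 0.0589). Its call in asc1-M1X was lost with DESeq2 (adjusted p = 0.0902), library size alone (0.0857) and no read minimum (0.0525). The other genes were not called, and CAF20 in particular was at 0.03 ± 0.10 and 0.06 ± 0.096. These were 3 and 2 calls, where 20.2% and 12% of all genes were called.

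FP and total RNA of the same number come from 1 cell extract, and a fit that keeps the culture as a block sharpens TE. With it EAP1 was also called in asc1-M1X (0.29, adjusted p = 0.0386), and CDC33 (−0.28, 0.00318) and TIF4632 (0.24, 0.0211) in asc1∆, which makes 4 calls in each strain. The block raised the calls over all genes as well, to counts given in the closing section. The shares without the block therefore do not apply to these counts. Calls in TE were lost in fits without the block that left out single cultures and so kept 1 culture in a group. The sizes moved less for some genes than for others. Where the call was lost, PAB1 in asc1∆ ran from −0.35 to −0.33 and CDC33 in asc1-M1X from −0.26 to −0.14. In asc1-M1X, DED1 was lost without mutant culture 2 (adjusted p = 0.073), PAB1 without either mutant culture (0.0659 and 0.124) and CDC33 without 3 of the 4 (0.178 to 0.346). In asc1∆, PAB1 was lost without any 1 of the 4 (0.0756 to 0.159) and DED1 without 3 of them (0.111 to 0.193).

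The Ribo-Zero total RNA gave the asc1-M1X contrast again with poly(A) selection left out. These libraries are labelled with the null name in their titles but as asc1-M1X in their strain fields, and ASC1 RNA was at 34.4% of WT in them. Total RNA was called for CDC33 (−0.18), PAB1 (−0.21) and CAF20 (−0.33), as with poly(A) selection, and for TIF4632 in the direction of its footprints, where 37.4% of all genes were called. TIF4631 (−0.03), EAP1 (−0.04) and DED1, which were called lower with poly(A) selection, were not called here. TIF4632 had 200.3 and 187 in WT and 266 and 264 in asc1-M1X, with no overlap and a change of 0.45 ± 0.070 (adjusted p = 1.52e-09). DED1 had 2167 and 2208 in WT and 2257 and 2298 in asc1-M1X, a change of 0.06 ± 0.044 (adjusted p = 0.256). The CDC33 call was lost without WT library 2 (−0.14) or asc1-M1X library 1 (−0.15). It was also lost with DESeq2 (adjusted p = 0.116) and with library size alone (0.129).

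Set against the same FP libraries, TE from Ribo-Zero was called lower for CDC33 (−0.27 ± 0.080, adjusted p = 0.0309) and PAB1 (−0.31 ± 0.064, adjusted p = 0.00185), where 9.34% of all genes were called. CDC33 was not called with DESeq2 (adjusted p = 0.106) or with library size alone (0.0951). DED1 was at 0.18 ± 0.065 (adjusted p = 0.0845), against 0.46 with poly(A)-selected RNA. TIF4632 was at −0.18 ± 0.086. The difference between the preparations was not tested, since they share FP libraries. With the culture block DED1 (0.18, adjusted p = 0.0364) and TIF4631 (−0.19, 0.0293) were called too, for 4 in all. The 9.34% is the share without the block, and the share with it is not given here. Without a single culture CDC33 was lost in 3 of 4 cases (adjusted p up to 0.392) and PAB1 without either mutant culture (0.104 and 0.0988). Equal numbers deviated together only weakly here, with r = 0.154 across genes in WT and 0.00905 in asc1-M1X.

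The strains with weaker ribosome binding of Asc1 showed no called change on this list. In asc1-D109Y none of the 10 was called in FP, total RNA or TE, where 0.985%, 0.37% and 0% of all genes were called. CDC33 had FP levels of 613 and 609 and a change of −0.11 ± 0.052 (adjusted p = 0.58), PAB1 was at −0.08 ± 0.045, TIF4632 at 0.01 ± 0.053 and DED1 at 0.01 ± 0.051. The edgeR test called 0 genes of 4871 in TE, with 129 at an unadjusted p below 0.05, and DESeq2 also called 0. At an unadjusted p below 0.05 the members in asc1-D109Y were TIF4631 in total RNA (−0.14) and EAP1 in TE (0.26), and DESeq2 called 0 members. In asc1-DE none of the 10 was called either, by edgeR or DESeq2, and 0 had an unadjusted p below 0.05, where 0.0213%, 0% and 0% of all genes were called. There the edgeR and DESeq2 tests called 0 genes in total RNA and in TE, with 22 and 33 at an unadjusted p below 0.05. The total RNA of asc1-DE was less precise, with an SE of 0.27 for DED1, whose 2 libraries were at 314 and 521 beside 379 and 573 in WT.

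The direct test of asc1-M1X against asc1-D109Y gave the difference itself. FP was called lower for CDC33 (−0.34), TIF4631 (−0.17), PAB1 (−0.44), TIF1 (−0.40), TIF2 (−0.21) and CAF20 (−0.41), and higher for TIF4632 (0.26) and DED1 (0.23), where 51.7% of all genes were called. Apart from TIF2, which was lost without asc1-D109Y library 1 (adjusted p = 0.111) or asc1-M1X library 2 (0.135), these held without each library in turn. With library size alone TIF4631 (−0.05, adjusted p = 0.324) and TIF2 (−0.09, adjusted p = 0.304) were not called, and TIF2 was also lost with DESeq2 and with all strains in 1 fit. Total RNA was called for 6, namely CDC33, PAB1, TIF1, CAF20 and DED1 lower and TIF4632 higher, where 32.8% were called, and without asc1-M1X library 2 the calls numbered 2. TE was called for DED1 (0.52 ± 0.095, adjusted p = 0.00164), where 16.8% of all genes were called, and with the culture block for PAB1 too (−0.20, adjusted p = 0.000489). The 16.8% is the share without the block, which raised the calls over all genes.

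The strains that lack a copy of a 60S protein had a different pattern. In rpl23b∆ FP was called lower for 6 of the 10 and higher for the repressors CAF20 and EAP1. Of all genes 49.4% were called, 24.8% lower and 24.6% higher. In rpp1a∆ it was called lower for 5 and higher for CAF20, where 41.5% were called, 20.4% lower and 21% higher. CDC33, which fell in the asc1 nulls, was at −0.05 ± 0.063 and −0.04 ± 0.062, with FP levels of 649 and 651 in rpl23b∆ and 659 and 652 in rpp1a∆ inside the WT pair.

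TIF4632 had FP levels of 165 and 186 in rpl23b∆ and 171 and 180.3 in rpp1a∆ against 229.7 and 239 in WT. No mutant library reached WT, and the change was −0.44 ± 0.073 (adjusted p = 9.38e-05) and −0.44 ± 0.062 (adjusted p = 0.000815), opposite in sign to the asc1 nulls. The eIF4B gene TIF3 went from 831 and 851 in WT to 655 and 632 and to 694 and 664, changes of −0.41 ± 0.060 (adjusted p = 2.9e-05) and −0.33 ± 0.057 (adjusted p = 0.00232). PAB1 fell by 0.48 and 0.36 and TIF4631 by 0.24 and 0.27. TIF2 fell by 0.39 and 0.36, the latter lost without WT library 1 (adjusted p = 0.144) or rpp1a∆ library 2 (0.0724). Under library size alone, which moved the median of all genes by 0.183 and 0.169, TIF4631 and TIF2 were not called in either strain and DED1 not in rpl23b∆ (−0.03, adjusted p = 0.626). TIF1 was at −0.09 and −0.04, neither called.

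CAF20 rose in both strains, from FP levels of 371 and 409.8 in WT to 447 and 462 in rpl23b∆ and 462 and 494 in rpp1a∆. The changes were 0.20 ± 0.066 (adjusted p = 0.0189) and 0.27 ± 0.068 (adjusted p = 0.0127), and both calls were lost without WT library 1, the lower of the WT pair (adjusted p = 0.248 and 0.121). EAP1 rose by 0.22 in rpl23b∆ (adjusted p = 0.049), a call lost without 3 of the 4 libraries (0.125 to 0.304). DED1 fell by 0.21 in rpl23b∆ (adjusted p = 0.00749, or 0.0783 without WT library 1) and was at −0.16 in rpp1a∆ (adjusted p = 0.0613).

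**Figure D3:**
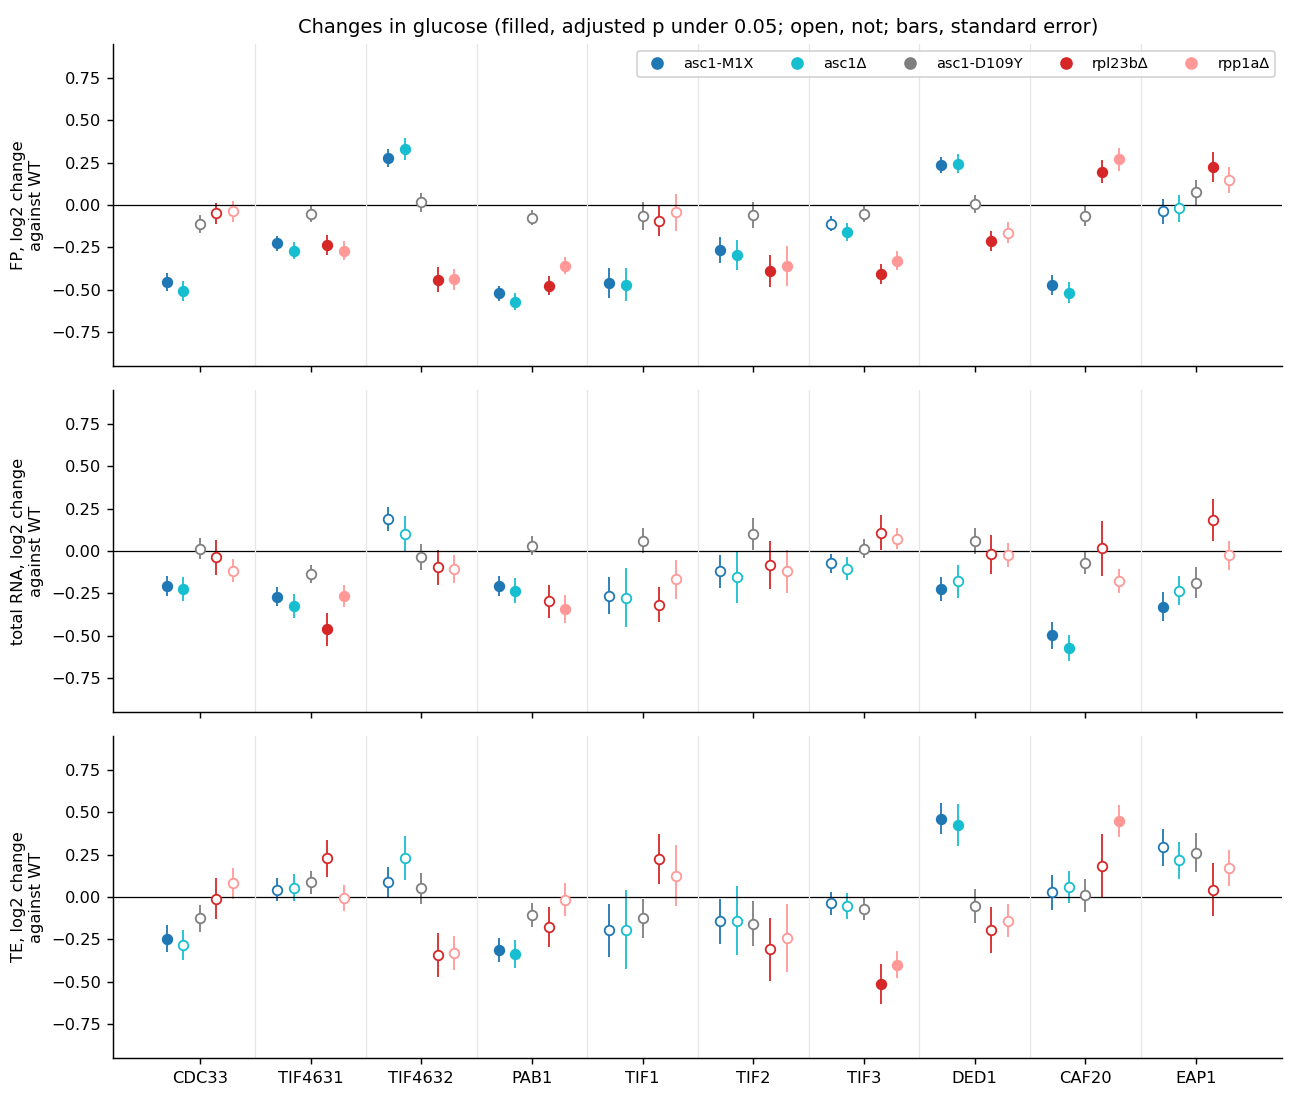
Log2 change against WT in FP, total RNA and TE for 5 strains of the main experiment, with bars of 1 SE and filled symbols for an adjusted p below 0.05. TIF4632, DED1 and CAF20 footprints take opposite signs in the asc1 nulls and in rpl23b∆ and rpp1a∆, the DED1 fall being called in rpl23b∆ alone and not with library size alone as the scaling, and asc1-D109Y has open symbols throughout.

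Few of the 10 were called in total RNA. TIF4631 was lower in rpl23b∆ (−0.46 ± 0.097, adjusted p = 0.00981) and in rpp1a∆ (−0.26, adjusted p = 0.0195), and PAB1 in rpp1a∆ (−0.34, adjusted p = 0.0181), where 24.2% and 28.1% of all genes were called. TIF4631 was lost without either WT library in both strains (adjusted p 0.078 and 0.0784 in rpl23b∆, 0.0808 and 0.0917 in rpp1a∆), and PAB1 without WT library 2 (0.0698). TIF3 RNA was at 0.11 and 0.07, so that its TE fell by 0.51 ± 0.12 in rpl23b∆ (adjusted p = 0.037) and 0.40 ± 0.080 in rpp1a∆ (adjusted p = 0.0279), where 2.62% and 3.87% of all genes were called. CAF20 TE rose in rpp1a∆ by 0.45 ± 0.095 (adjusted p = 0.0358). With the culture block TIF4632 (−0.33, adjusted p = 0.003) and TIF2 (−0.26, 0.0492) were called as well in rpp1a∆. The 3.87% is the share without the block, which raised the calls over all genes severalfold (closing section). Without it, none of the rpp1a∆ calls in TE survived leaving out any 1 culture (adjusted p 0.0656 to 0.285 for TIF3 and 0.0737 to 0.294 for CAF20), and TIF3 in rpl23b∆ was lost in 3 of 4 cases (up to 0.399).

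Set directly against rpl23b∆ and rpp1a∆, asc1-M1X differed most in TIF4632 and CAF20. TIF4632 footprints were higher by 0.72 ± 0.065 (adjusted p = 1.13e-07) and 0.71 ± 0.060 (adjusted p = 6.54e-06), and CAF20 footprints lower at −0.66 ± 0.058 (adjusted p = 7.94e-08) and −0.74 ± 0.062 (adjusted p = 5.59e-06). CDC33 (−0.40 and −0.42) and TIF1 (−0.37 and −0.42) were lower and DED1 (0.45 and 0.40) and TIF3 (0.30 and 0.22) higher in asc1-M1X in both tests. In all 7 and 8 of the 10 were called, where 61.7% and 59.7% of all genes were. PAB1, which fell in all of these strains, differed from rpl23b∆ by −0.04 ± 0.053 (adjusted p = 0.504) and from rpp1a∆ by −0.17 ± 0.044 (adjusted p = 0.00887, or 0.167 without asc1-M1X library 1 and 0.104 without library 2). EAP1 was lower in both, at −0.26 and −0.19, and lost without 3 and 4 of the 4 libraries (adjusted p up to 0.119 and 0.228). Without asc1-M1X library 2 the rpp1a∆ test in FP kept 4 calls, and lost TIF1 (adjusted p = 0.0541) and TIF3 (0.0646) too.

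In total RNA the called genes of both tests were TIF4632 (0.29 and 0.30), CAF20 (−0.51 and −0.32) and EAP1 (−0.51 and −0.30), where 32.2% and 44.9% of all genes were called. All 6 were lost in at least 1 fit that left out a library, with adjusted p up to 0.442 for TIF4632 against rpl23b∆. In TE, asc1-M1X was higher than both for DED1 (0.66 ± 0.13, adjusted p = 0.00326, and 0.60 ± 0.095, adjusted p = 0.000627), TIF3 (0.48 and 0.36) and TIF4632 (0.43 and 0.41), and lower than rpp1a∆ for CDC33 (−0.33), PAB1 (−0.31) and CAF20 (−0.43), where 19.9% and 31.4% of all genes were called. DED1 against rpp1a∆ was the 1 TE call that held without each culture. Against rpl23b∆ it was lost without asc1-M1X culture 2 (adjusted p = 0.0614), and without that culture none of the calls against rpl23b∆ and 1 of those against rpp1a∆ was left. The block added TIF1 in both (−0.42, adjusted p = 0.0284, and −0.31, 0.0152).

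The 40S strains of the deletion collection gave calls for the eIF4A genes alone on this list. TIF2 had FP levels of 70.4 and 78.8 in its WT, 103 and 106 in rps0b∆ and 106 and 96.9 in rps16b∆. Both mutants lay above WT, by 0.49 ± 0.092 (adjusted p = 0.00352) and 0.44 ± 0.083 (adjusted p = 0.00859, or 0.0905 without rps16b∆ library 1). TIF1 was at 66.2 and 74.9 in WT and 91.1 and 85.3 in rps0b∆, a rise of 0.33 ± 0.097 (adjusted p = 0.0343) that was lost without WT library 1 (0.216) or rps0b∆ library 1 (0.113). In rps16b∆ TIF1 was at 0.14 ± 0.083. In FP 19.7% and 8.24% of all genes were called. No member was called in total RNA, where 24.4% and 0.414% were called, or in TE, where 1.43% and 0.145% were. At an unadjusted p below 0.05 there were 1 and 2 members in rps0b∆ and 0 and 1 in rps16b∆, and DESeq2 called 0.

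CDC33, TIF4632, PAB1, CAF20 and DED1 had FP changes between −0.12 and 0.16 in these strains. DED1 RNA, already low in this preparation, was at 43.9 and 47.4 in rps0b∆ and 40.6 and 46.4 in rps16b∆ beside 55.3 and 51.7 in WT, a change of −0.21 ± 0.11 (adjusted p = 0.161) and −0.28 ± 0.15 (adjusted p = 0.515). Because strain background and RNA preparation differ from the main experiment, the 40S and 60S strains were not compared with each other.

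In glycerol the footprints of the whole list except EAP1 were lower. Against WT of the main experiment in glucose, all 10 were called in FP, 9 lower and 1 higher. Of 5201 genes 78.5% were called, 36.9% lower and 41.5% higher. The median of the 10 was −1.16 beside 0.05 for all genes. CDC33 was at 312 and 329.7 in glycerol, a change of −1.02 ± 0.083 (adjusted p = 1.34e-06). PAB1 was at 1222 and 1087 (−1.10), DED1 at 818 and 838 (−1.21) and TIF4631 at 340.0 and 372 (−1.21). The largest fall was that of TIF2, to 34.4 and 35.0 (−1.73 ± 0.12, adjusted p = 4.73e-07), and the smallest that of TIF4632, to 158 and 183 (−0.43 ± 0.084, adjusted p = 0.000899). EAP1 went from 67.7 and 69.9 in glucose to 106 and 119 in glycerol, a rise of 0.73 ± 0.082 (adjusted p = 1.51e-05).

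The 2 media were also 2 experiments, so medium and experiment cannot be told apart. The FP result was recomputed with the other WT glucose cultures in turn. Only the glucose side changes in these fits, and the same 2 glycerol libraries enter each, so they do not separate medium from experiment. The 9 falls were called in the same direction against WT of the main, the poly(A) tailing and the collection experiments. There 78.5%, 75.1% and 76.8% of all genes were called in either direction. EAP1 was not, since its FP level in the collection WT was 113 and 112, and its change against that WT was 0.01. These 2 additional references were chosen after the levels had been seen.

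Total RNA in glycerol depended on the reference. Across genes, WT levels in glycerol correlated with WT in glucose at r = 0.393 (main), 0.555 (poly(A) tailing) and 0.761 (collection). For FP these values were 0.703, 0.692 and 0.690. The cause of this difference was not tested. Against the main experiment all 10 were called, where 86.7% of all genes were, with CDC33 (0.86), TIF1 (0.40) and CAF20 (1.19) higher and the rest lower, DED1 at −4.12 ± 0.15 and PAB1 at −3.12 ± 0.13. Against the collection WT 8 were called lower and none higher, with CDC33 at −1.07, TIF1 at −1.18, CAF20 at −0.37 and DED1 at −0.05. DED1 RNA was at 50.4 and 50.0 in glycerol and 55.3 and 51.7 in the collection WT in glucose. PAB1, TIF4631, TIF2 and TIF3 RNA was called lower against all 3 references. TIF1 against the main WT was lost without WT glucose library 2 (0.37) and without WT glycerol library 2 (0.38). A fit with an offset per replicate number in each experiment gave 0.20. That fit sets the first replicates of the media against each other, not the group means, so it does not test the call.

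TE depended on the reference as well. Against the main experiment 8 were called, where 75.3% of all genes were, among them DED1 at 2.91 ± 0.18, PAB1 at 2.02 and TIF4631 at 1.60. Against the collection WT these values were −0.98, −0.47 and −0.77, and 5 were called. Of the 10, only CAF20 was called in TE in 1 direction, lower, under all 3 references (−1.97 against the main WT). The median TE change of all genes was 0.19 against the main WT, and CAF20 lay 2.16 below that median.

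**Figure D4:**
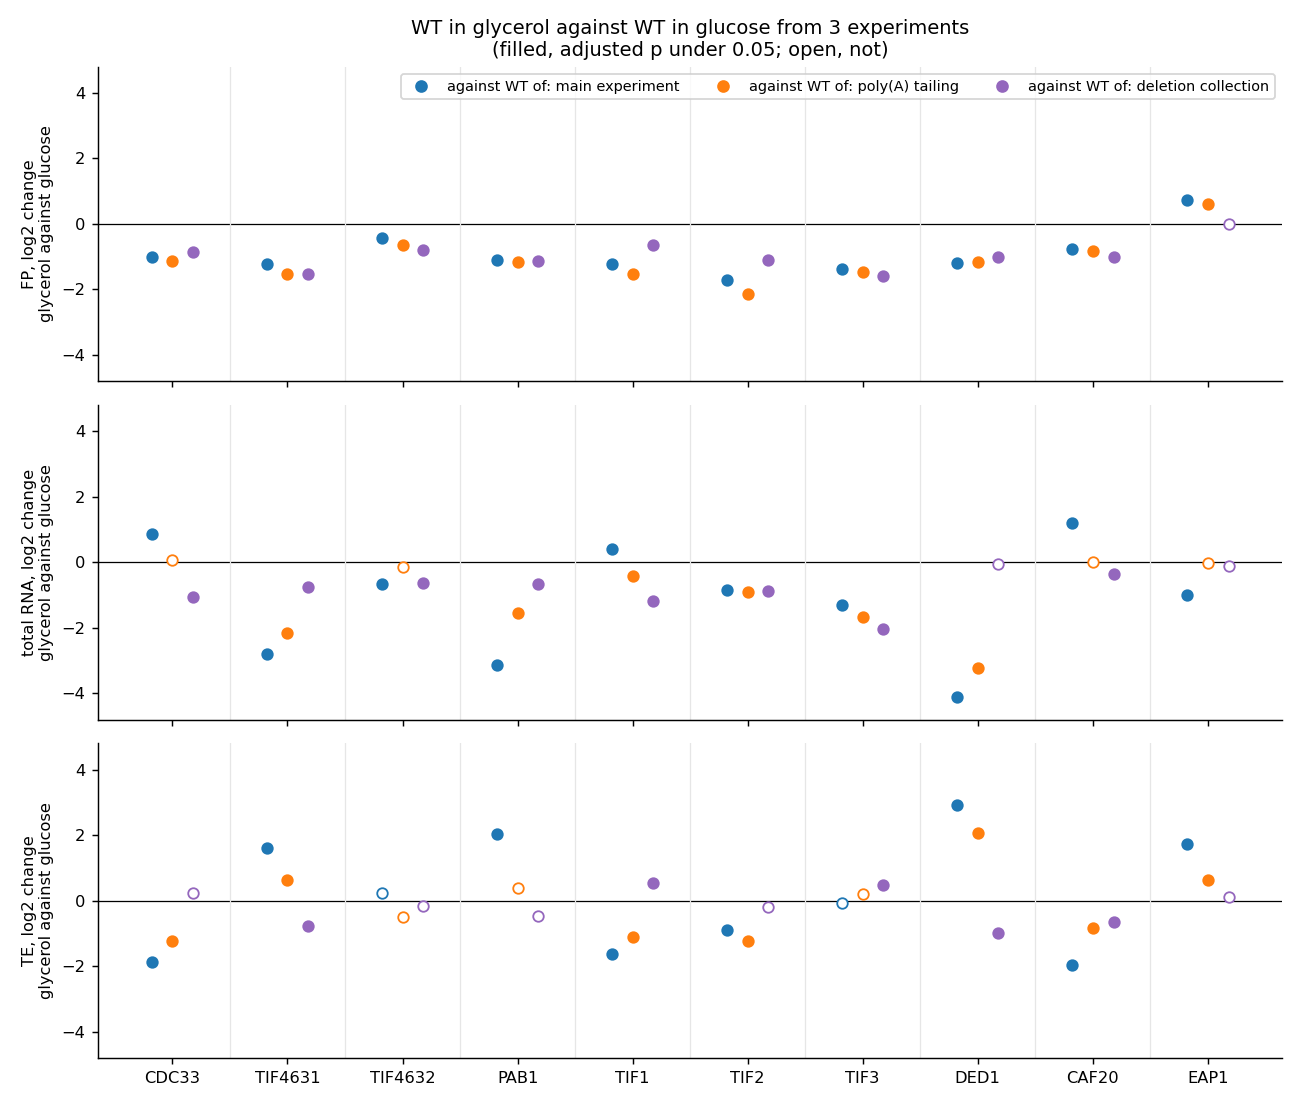
Log2 change of WT in glycerol against WT in glucose in FP, total RNA and TE, with the glucose WT taken from the main, poly(A) tailing or collection experiment, filled symbols for an adjusted p below 0.05. In FP the values of each of 7 genes over the 3 references lie within 0.4 of each other. TIF2 runs from −1.09 to −2.13, TIF1 from −0.64 to −1.53 and EAP1 from 0.01 to 0.73. DED1 runs from −4.12 to −0.05 in total RNA and from 2.91 to −0.98 in TE.

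Within the glycerol experiment, strain is the only difference given by the labels. Per the study, polysomes recovered only in part in asc1-M1X after the shift, and its growth ceased after a few doublings. Strain and growth state therefore cannot be told apart here. In asc1-M1X, footprints of 7 of the 10 were called lower and none higher. Of all genes 41.2% were called, 22.5% lower and 18.7% higher. The median of the 10 was −0.51. CAF20 went from 228 and 221 in WT to 105 and 122 (−0.90 ± 0.11, adjusted p = 0.00166). TIF4632, which rose in glucose, went from 158 and 183 to 107 and 108 (−0.59 ± 0.10, adjusted p = 0.0047). CDC33 went from 312 and 329.7 to 190.0 and 204 (−0.62 ± 0.11, adjusted p = 0.00405), and TIF1 fell by 0.76. In each of these 4 genes both mutant libraries lay below both WT libraries.

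PAB1 (−0.50), TIF3 (−0.53) and TIF4631 (−0.32) were called lower as well. However, PAB1 was lost without WT library 1 (−0.39) or asc1-M1X library 1 (−0.48). TIF3 was lost without asc1-M1X library 1 (−0.40) and TIF4631 without any 1 library (−0.36 to −0.25). With library size alone PAB1 (adjusted p = 0.0659), TIF3 (0.054) and TIF4631 (0.253) were not called. TIF4631 was also lost with median-ratio scaling, no read minimum and DESeq2. Without asc1-M1X library 1, 4 calls remained. DED1, which rose in glucose, was at 723 and 876 beside 818 and 838 in WT, a change of 0.03 ± 0.13 (adjusted p = 0.89). EAP1 was at 127 and 119.9 beside 106 and 119 (0.21, adjusted p = 0.133).

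Of the glycerol total RNA, CAF20 (−0.61 ± 0.14, adjusted p = 0.013) and TIF1 (−0.46 ± 0.13, adjusted p = 0.0337) were called lower, where 17.9% of all genes were called. CAF20 was lost without asc1-M1X library 2 (adjusted p = 0.0771) and TIF1 without WT library 2 (0.113) or asc1-M1X library 1 (0.237). No member was called in TE by edgeR or DESeq2, where 0.216% of all genes were called, 1 had an unadjusted p below 0.05 (TIF4632, −0.49) and DED1 was at 0.04 ± 0.22. With the culture block TIF4632 was called at −0.48 (adjusted p = 0.0158). The 0.216% is the share without the block, which raised the calls over all genes many times (closing section).

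**Figure D5:**
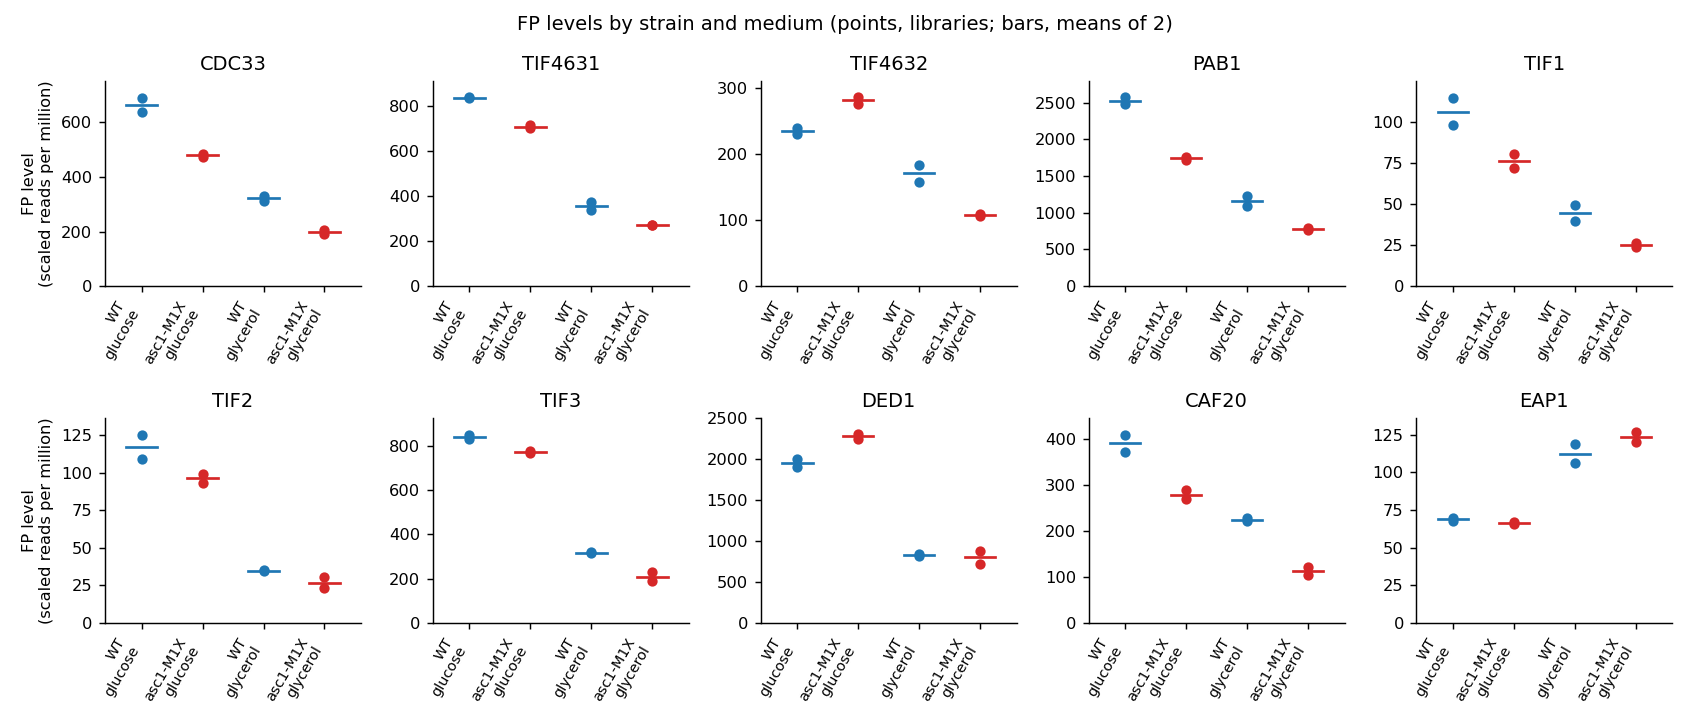
FP levels in WT (blue) and asc1-M1X (red) in glucose and glycerol, in scaled CPM on linear axes that start at 0, with a point per library and a bar at the mean of 2. TIF4632 is higher in asc1-M1X in glucose (276 and 286 against 229.7 and 239) and lower in glycerol (107 and 108 against 158 and 183), and EAP1 is higher in glycerol than in glucose in both strains.

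The difference of the asc1-M1X change between the media, tested as an interaction, was largest on this list for TIF4632. Its FP change was 0.28 in glucose and −0.59 in glycerol, and the interaction gave −0.93 ± 0.12 (adjusted p = 0.000743), which was called without each of the 8 libraries in turn. CAF20 (−0.50 ± 0.13, adjusted p = 0.0222) and TIF3 (−0.48 ± 0.14, adjusted p = 0.026) fell further in glycerol than in glucose, and were lost without 5 and 4 of the 8 libraries (adjusted p 0.0535 to 0.221 and 0.0899 to 0.2), and with library size alone (adjusted p = 0.0579 and 0.0681). The interaction was fitted to the libraries of both media together, scaled as 1 set, so its values do not equal the difference of the changes fitted within each medium. The median difference over all genes was −0.12 in FP, and 27.3% of genes were called, 1047 of 1421 of them negative. DED1 was at −0.28 ± 0.14 (adjusted p = 0.172). In total RNA none of the 10 was called by edgeR or DESeq2, where 11.5% of genes were, and 1 had an unadjusted p below 0.05, EAP1 at 0.68 ± 0.21 (adjusted p = 0.0636). In TE none was called by edgeR or DESeq2, where 0.711% were, with TIF4632 at an unadjusted p below 0.05 (−0.68). With the culture block TIF4632 (−0.68, adjusted p = 0.0184) and DED1 (−0.53, adjusted p = 0.0361) were. The 0.711% is the share without the block, which raised the calls over all genes many times (closing section).

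The genes around the complex were read from 3 further lists, namely 8 genes of tail shortening and Pab1 partners, 10 of repression and decay, and 14 other initiation factors including DBP1, the paralog of DED1. In asc1-M1X in glucose, 6 of the 10 repression and decay genes were called lower in FP and none higher, with the lowest adjusted p for XRN1 (−0.68), the 5′ exonuclease, and PAT1 (−0.55), a decapping activator. The tail list gave 3 lower and 2 higher, with the lowest adjusted p for CCR4 (−0.65) and PAN2 (−0.69), which shorten poly(A) tails. In the initiation list 6 were called higher and 1 lower, with 7 of the 14 not called. The lowest adjusted p were those of SUI1 (0.57), which is eIF1, and HCR1 (0.33), which is eIF3j, and the largest change was that of DBP1 (0.87), added here for its size. Medians were −0.20, −0.06 and −0.05 beside 0.00 for all genes, so the median of the initiation list was below 0 though more of its calls were higher. Of all genes, 52.3% were called in FP (25.4% lower) and 20.2% in TE. The number of calls in either direction in these lists is close to that share. In TE, 4 initiation genes were higher and none lower, with NIP1 at 0.30 and GCD11 at 0.27, while XRN1 (−0.37) and PAN2 (−0.56) were lower. In asc1∆ the initiation list had 3 genes called higher and 3 lower in FP and none called in TE, where 48.8% and 12% of all genes were called.

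In rpl23b∆, where 49.4% of all genes were called in FP, the same lists were mixed, with 3 higher and 2 lower for repression and decay, among them SBP1 (−0.50) and DCP1 (0.66), and 5 higher and 3 lower for initiation, among them PRT1 (0.44) and RPG1 (−0.46), 2 subunits of eIF3, and DBP1 (−0.54). In rpp1a∆ they gave 2 higher and 3 lower, and 2 higher and 3 lower, where 41.5% of all genes were called. In WT in glycerol 13 of the 14 initiation genes were lower in FP, with NIP1 at −1.67 and RPG1 at −1.52, while DBP1 was higher (2.68). Of all genes, 36.9% were called lower and 41.5% higher there. DBP1 was named in these contrasts after its values had been seen. In the tail list, PBP4 was higher (0.89) and MKT1 lower (−0.55), and the median was 0.01. In asc1-M1X in glycerol, 22.5% of all genes were called lower and 18.7% higher. There the initiation list had 7 lower and 2 higher, with DBP1 at 1.21 and TIF11, which is eIF1A, at −0.80. The repression list had 4 lower, with SCD6 at −0.68. Reads of DBP1 and DED1 were counted only where they align to 1 place.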

How the data were processed

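FP and total RNA libraries of Sigma1278b yeast were analysed from the whole-number counts per ORF that the authors deposited. Per the labels and the study's methods, the authors used TopHat (version not given in the sources used here) against the Sigma1278b assembly. They counted reads that align to 1 place and left out the first codons of each ORF. They pooled 6 FP samples titled reprep into the first replicates of the main experiment, so those FP replicates hold a further preparation and the second replicates do not. The Ribo-Zero table repeats the FP columns of the main experiment. The 56 libraries used were grouped by the labels. The collection WT columns are numbered, but under the names of main-experiment samples, so they were matched to their group only. The members and gene lists were chosen with earlier results of these data known.

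In R 4.3.3, edgeR 4.0.16 (glmQLFit and glmQLFTest) was run on the libraries of each comparison, with TMM scaling within a library type, and TE was the interaction of library type and strain. Genes needed 128 reads summed over each library type. The 19 genes encoded in mitochondria did not enter the fits. Adjusted p-values are Benjamini-Hochberg values over all genes tested, with a threshold of 0.05, in 44 combinations of comparison and measure. On simulated counts for asc1-M1X against WT over 4928 genes, 97.5% of 200 genes changed by a log2 value of 1 were recovered in FP and 96% in TE. There were 6 and 9 false calls. The members changed by at most 0.52 in FP and 0.46 in TE in this contrast, so the recovery at their sizes is not given. The simulated libraries were drawn independently, with no deviation shared by FP and total RNA of a culture. All 10 members are named in each comparison. From each further list at most 2 called genes per measure, those with the lowest adjusted p, are named, besides the deleted or mutated gene as a check of the labels.

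FP and total RNA of equal number come from 1 extract per the study's methods, and their deviations correlated at r = 0.00905 to 0.531, above 0.1 in 12 of 14 pairs. The alternatives were median-ratio scaling, library size alone, other read minimums, DESeq2 1.42.0, a replicate block, all strains in 1 fit, leaving out each replicate and, added later, other glucose references. ORF identifiers were matched to RefSeq symbols (assembly R64) for 5560 of 5563 ORFs. Figures were drawn with matplotlib 3.10.9. Intervals from counting were not used, because the spread between 2 libraries sets the precision.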

Additional observations from a re-analysis of the deposited data

Results flagged for a closer look

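The effect of asc1-M1X on footprints differed between glycerol and glucose for 3 of the 10 genes by the interaction test of edgeR. Since 27.3% of 5201 genes were called in this test, the count is near the share over all genes. TIF4632 changed by 0.28 in glucose and −0.59 in glycerol, a log2 difference of −0.93, and its mutant and WT libraries did not overlap in either medium. CAF20 changed by −0.47 and −0.90, a difference of −0.50. TIF3 changed by −0.11 and −0.53, a difference of −0.48. TIF4632 was called in every fit that left out a library. CAF20 and TIF3 were lost in several of those fits and with library size alone as the scaling. These differences come from 1 fit over both media, scaled as 1 set, and so do not equal the difference of the separately fitted changes. The median difference of all genes was −0.12, and relative to it the 3 values were −0.81, −0.38 and −0.36.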

How the results depend on the processing

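Of 146 calls on single members, 82 were made in every fit that left out a replicate and 64 were lost in at least 1. The 56 libraries give 2 per group, and the spread between them sets the limit. Library size alone shifted the median of all genes by 0.105 to 0.183 in FP or total RNA of the asc1 null and 60S contrasts, and it lowered the calls in total RNA from 6 to 3 (asc1-M1X), 4 to 2 (asc1∆), 2 to 1 (rpp1a∆), 2 to 1 (asc1-M1X in glycerol) and 6 to 2 (against asc1-D109Y), in FP from 8 to 5 (rpl23b∆) and 3 to 1 (difference between media) and in TE from 1 to 0 (rpl23b∆), and raised TE against asc1-D109Y from 1 to 2. DESeq2 gave 2 in place of 1 (rpl23b∆ total RNA), 1 in place of 2 (rps0b∆ FP, glycerol total RNA and Ribo-Zero TE). Median-ratio scaling gave 2 in rpl23b∆ total RNA. All strains in 1 fit gave 3 in asc1-M1X total RNA, 2 in rpl23b∆ total RNA and against asc1-D109Y in total RNA, and 1 in rpp1a∆ TE. The cause of these moves was not tested. Neither read minimum moved a count of calls by over 1.5 times.

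With the replicate block the counts became 4 in TE of asc1∆ and rpp1a∆ (from 2 each) and of asc1-M1X with Ribo-Zero RNA (from 2), 1 in TE of asc1-M1X in glycerol (from 0), 2 in TE of the difference between media (from 0) and against asc1-D109Y (from 1), 1 in total RNA of asc1-D109Y (from 0, TIF4631 at −0.14, adjusted p = 0.00649), 3 in total RNA of rpl23b∆ (from 1) and 5 in total RNA against rpp1a∆ (from 3). In FP or total RNA alone equal numbers are not known to mark a shared culture between strains, and strain and WT deviated together at r = −0.0234 to 0.615, above 0.1 in 13 of 15 pairs. Calls it added on single members in FP or total RNA included TIF4632 (0.19, adjusted p = 0.00144) and TIF1 (−0.28, 0.000241) in asc1-M1X total RNA, TIF3 in asc1-M1X FP (−0.11, 0.0131), EAP1 (−0.23, 0.0216) and DED1 (−0.19, 0.0166) in asc1∆ total RNA, and DED1 in rpp1a∆ FP (−0.17, 0.00215). The block moved no other count by over 1.5 times. No blocked fit was made for the collection strains, whose WT columns could not be matched to single samples.

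Without 1 replicate at a time, member calls in FP, total RNA and TE ran from 7 to 8, 1 to 6 and 0 to 3 in asc1-M1X, 7 to 8, 2 to 5 and 0 to 1 in asc1∆, 5 to 8, 0 to 4 and 0 to 1 in rpl23b∆, 4 to 7, 0 to 3 and 0 to 0 in rpp1a∆, 1 to 2, 0 to 1 and 0 to 0 in rps0b∆, 0 to 3, 0 to 1 and 0 to 1 in rps16b∆, 4 to 7, 1 to 2 and 0 to 0 in asc1-M1X in glycerol, 1 to 4, 0 to 1 and 0 to 0 for the difference between media, 7 to 8, 2 to 7 and 1 to 1 against asc1-D109Y, 6 to 7, 1 to 6 and 0 to 7 against rpl23b∆, 4 to 8, 1 to 5 and 1 to 6 against rpp1a∆, and 10 to 10, 9 to 10 and 8 to 8 for WT in glycerol. Ribo-Zero gave 3 to 5 in total RNA and 0 to 2 in TE, and asc1-D109Y and asc1-DE gave 0. CAF20 total RNA in rpl23b∆ reversed to −0.29 (adjusted p = 0.0457) without rpl23b∆ replicate 2, was at 0.27 (adjusted p = 0.0394) without replicate 1, and was at 0.02 with both. A fit with 1 library in a group takes its spread from the others.

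With the collection WT as the glucose reference, the WT glycerol contrast reversed in total RNA for CDC33 (−1.07), TIF1 (−1.18) and CAF20 (−0.37) and in TE for CDC33 (0.23), TIF4631 (−0.77), PAB1 (−0.47), TIF1 (0.53), TIF3 (0.47) and DED1 (−0.98), with 5 TE calls in place of 8. With the poly(A) tailing WT, TIF1 total RNA reversed (−0.42), with 6 total RNA calls in place of 10. The WT preparations differ in total RNA, as described above.

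Counts over all genes also moved. With the block, TE calls went from 999 to 1594 (asc1-M1X), 596 to 1486 (asc1∆), 128 to 255 (rpl23b∆), 189 to 1032 (rpp1a∆), 11 to 572 (asc1-M1X in glycerol), 37 to 440 (difference between media), 829 to 1404 (against asc1-D109Y) and 0 to 4 (asc1-D109Y). Total RNA calls went from 1553 to 2428, 1186 to 2016, 1376 to 2350, 1620 to 2433 and 18 to 198 in asc1∆, rpl23b∆, rpp1a∆, against asc1-D109Y and in asc1-D109Y, and FP calls in asc1-D109Y from 48 to 143. asc1-DE went from 1 to 35 in FP and 0 to 9 in total RNA. DESeq2 gave 638 in TE and 1177 in total RNA (from 1785) of asc1-M1X, 1016 in total RNA of asc1∆, 30 in asc1-D109Y, 7 in FP of asc1-DE, 665 in total RNA of rps0b∆ (from 1179), 261 in FP (from 398) and 36 in total RNA (from 20) of rps16b∆, 35 in TE in glycerol, 880 in total RNA (from 1813) and 148 in TE (from 453) with Ribo-Zero, and 932 and 499 in total RNA and TE against asc1-D109Y. All strains in 1 fit gave 1951 and 494 in rpl23b∆ total RNA and TE, 335 in rpp1a∆ TE, 252 and 21 in rps0b∆ total RNA and TE (from 1179 and 69), 233 and 38 in rps16b∆ FP and total RNA, and 436 in TE against asc1-D109Y. The difference between media in TE ran from 10 to 23 under the scaling and read minimum alternatives, asc1-DE in FP from 1 to 3, and rps0b∆ in TE to 107 with no read minimum.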
